A study of Rattus norvegicus with 28 samples.

Results

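The comparison described here set 3 lungs of rats ventilated with variable tidal volumes after chronic lung injury (chronic_noisy) against 3 lungs ventilated with constant tidal volumes after the same kind of injury (chronic_VCV). These 6 libraries, taken by their labels, are 6 of the 28 in the series, and all 17002 genes of the table were read for them. All animals were Sprague Dawley rats, and RNA came from the right upper lung lobe. The other libraries came from unventilated rats without injury (control_blank, 3 libraries), unventilated rats 14 days after chronic injury was induced (control_chronic, 5), and rats without previous lung injury ventilated at constant (healthy_VCV, 4) or variable (healthy_noisy, 3) tidal volumes. Rats ventilated after acute injury at constant (acute_VCV, 3) or variable (acute_noisy, 4) tidal volumes made up the remainder. The labels name neither the age of the rats, the agent of the injury nor the length of ventilation, and they do not say that each library is a separate animal, so p-values measure the spread between libraries only.

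A ventilator in volume-controlled mode gives each breath the same volume. In variable ventilation, also called noisy ventilation, the volume changes at random from breath to breath, as it does in spontaneous breathing. Cyclic stretch of lung cells is sensed at integrins, ion channels and the actin cytoskeleton, and it switches on immediate early transcription factors, epidermal growth factor (EGF) receptor ligands and the matricellular factors Ctgf and Cyr61 within a short time.

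Levels below are the deposited normalised read counts, which were not divided by gene length, so levels are compared only within a gene. Recovered read totals were 11280590 to 16842768 in chronic_VCV and 18287629 to 21606891 in chronic_noisy, so the ranges of depth did not overlap. On the first principal component of the 6 libraries, which held 47.7% of the variance, chronic_VCV 067 stood at 68 and the other 5 between -44.4 and 22.5. Library numbers in the titles began with 14 for every chronic_noisy library and with 15 for every chronic_VCV library. The labels do not say what these number series are, and within this comparison the ventilation mode and the number series cannot be told apart. Both series occurred within healthy_VCV and within acute_noisy, so the difference of series 14 minus series 15, written below as the series difference, was estimated there. It was called for 171 of 14908 genes (1.15%), and its values are given beside many of the results. Every control_chronic library was of number series 18, with 6024093 to 17162741 recovered reads. Where levels are set against unventilated chronic injury, ventilation and number series therefore cannot be told apart. In whole lung tissue, fewer cells of a type and less RNA per cell cannot be told apart.

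After chronic injury, variable ventilation went with lower levels of 7 of 24 immediate early genes and of single genes such as Areg, Ctgf, Tnfrsf12a and F2rl1, and with higher levels of 8 of 17 heart muscle genes, versican and the chemokine receptor Ccr2. Of 14908 genes with a mean level of at least 10, 362 passed an adjusted p of 0.05 in limma (2.43% of genes tested) and are referred to as called. Of these, 84 were higher (0.563%) and 278 lower (1.86%) in chronic_noisy. The median difference over all genes tested was 0.02 on the log2 scale. The 3 levels of one mode lay wholly above those of the other for 4526 genes (30.4%), of which 2375 (15.9%) were higher and 2151 (14.4%) lower in chronic_noisy.

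The count depended on single libraries. Without chronic_VCV 067 the count fell from 362 to 8 (0.0537%), without chronic_noisy 079 to 15, without chronic_noisy 084 to 14, and without chronic_VCV 073 to 157. It was 202 without chronic_noisy 075 and 702 without chronic_VCV 069. Of the 362, 6 genes were called in each of these 6 fits as well, namely Rasl11b, Tnfrsf12a, Epha2, Galr2, Mme and F2rl1. With the number series as a covariate, 9 genes (0.0604%) were called, of which 8 were among the 362. All 362 kept their direction in that fit, and 62 of the 84 higher and 223 of the 278 lower genes kept at least 50% of their log2 difference.

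**Figure D1:**
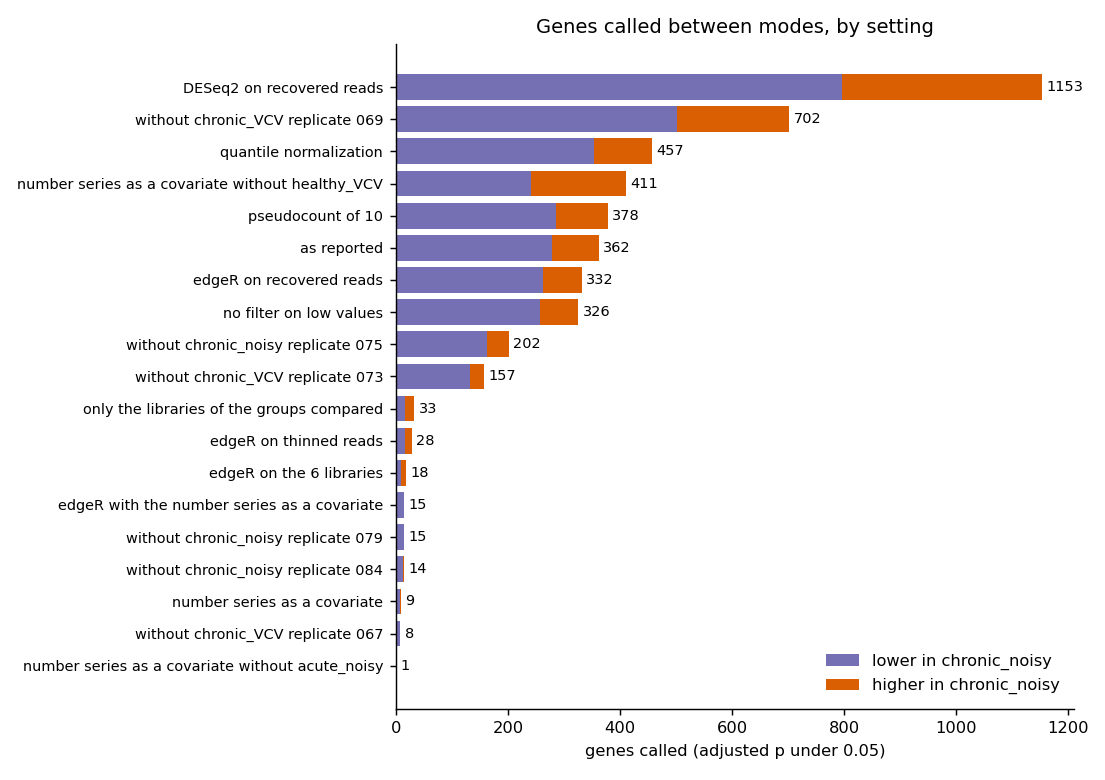
Number of genes called between chronic_noisy and chronic_VCV (horizontal axis, adjusted p under 0.05) for each way of processing (vertical axis), split into genes lower and higher in chronic_noisy. The count as reported is 362, and it runs from 1 with the number series as a covariate without acute_noisy to 1153 with DESeq2.

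Immediate early genes, which cells transcribe within minutes of a stimulus without new protein synthesis, were lower in chronic_noisy. Of the 24 tested, 7 fell (Fosl1, Egr1, Jund, Maff, Ier3, Myc and Gadd45b) and none rose, beside 1.86% of all genes tested called lower. The median of the 24 was -1.05 on the log2 scale, beside 0.02 for all genes. Their median series difference was 0.03, and with the series as a covariate their median was -1.05. Without chronic_VCV 067 the median was -0.41 and none of the 24 was called, whereas edgeR on the recovered reads of all libraries called 14 of them lower.

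Fosl1 encodes the AP-1 subunit FRA-1, which is induced by growth factors and wounding. Its level was 29.8, 11.7 and 20.7 in chronic_noisy 075, 079 and 084 and 1248, 54.8 and 189 in chronic_VCV 067, 069 and 073. All 3 constant-ventilation lungs were above all variable-ventilation lungs, and library 067 was the highest. The difference was -3.54 ± 0.64 (log2, SE from the fit of all 28 libraries, with 3 libraries per mode, limma adjusted p = 0.0122). In unventilated chronic injury Fosl1 ranged from 17.8 to 39.65, and chronic_noisy 079 was below that range.

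Egr1, a zinc-finger transcription factor that responds to stretch and to growth factors, stood at 682, 315 and 322 in chronic_noisy. In chronic_VCV it stood at 20310, 2716 and 710. The lowest constant-ventilation value was thus close to the highest variable-ventilation value, and the spread within chronic_VCV was wide. Unventilated chronic injury ranged from 419 to 1676, which held chronic_VCV 073 and chronic_noisy 075. Above that range were chronic_VCV 067 and 069, and below it chronic_noisy 079 and 084. The difference was -3.04 ± 0.79 (log2, limma adjusted p = 0.0416), the call was kept in 2 of the 6 fits that leave out a library, and the series difference was 0.13. Nab2, a corepressor that EGR1 itself induces, fell by 1.66 ± 0.34 (limma adjusted p = 0.0177), from 3106, 844 and 846 in chronic_VCV to 410, 394 and 431 in chronic_noisy.

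Maff, a small MAF transcription factor, was 839, 504 and 807 in chronic_noisy and 1268 to 3175 in chronic_VCV, a difference of -1.36 ± 0.30 (limma adjusted p = 0.0227). Ier3, which modulates survival signalling, fell by 1.34 ± 0.36 (limma adjusted p = 0.0471). Gadd45b, a stress-induced activator of p38 and JNK kinases, was at 2910, 1903 and 2033 against 5624, 3887 and 2802, and its groups overlapped. Its glucocorticoid-responsive relative Gadd45g fell by 1.26 ± 0.31 (limma adjusted p = 0.0352) without overlap. Fos itself was not called, with -1.07 ± 0.73 and a limma adjusted p of 0.377, and neither was Junb, with -1.03 ± 0.36 and 0.102. In chronic_VCV 067, Fos was at 2787 and Junb at 17090, in each case the highest of the 6 libraries.

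Jund, an AP-1 subunit, differed in pattern from the other called members. It was at 219, 514 and 484 in chronic_noisy and at 6507, 2274 and 2010 in chronic_VCV (-3.03 ± 0.59, limma adjusted p = 0.0149), while unventilated chronic injury held 1768 to 2714. Its series difference was -1.79, and with the covariate its mode difference was -1.24 (limma adjusted p = 0.49).

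**Figure D2:**
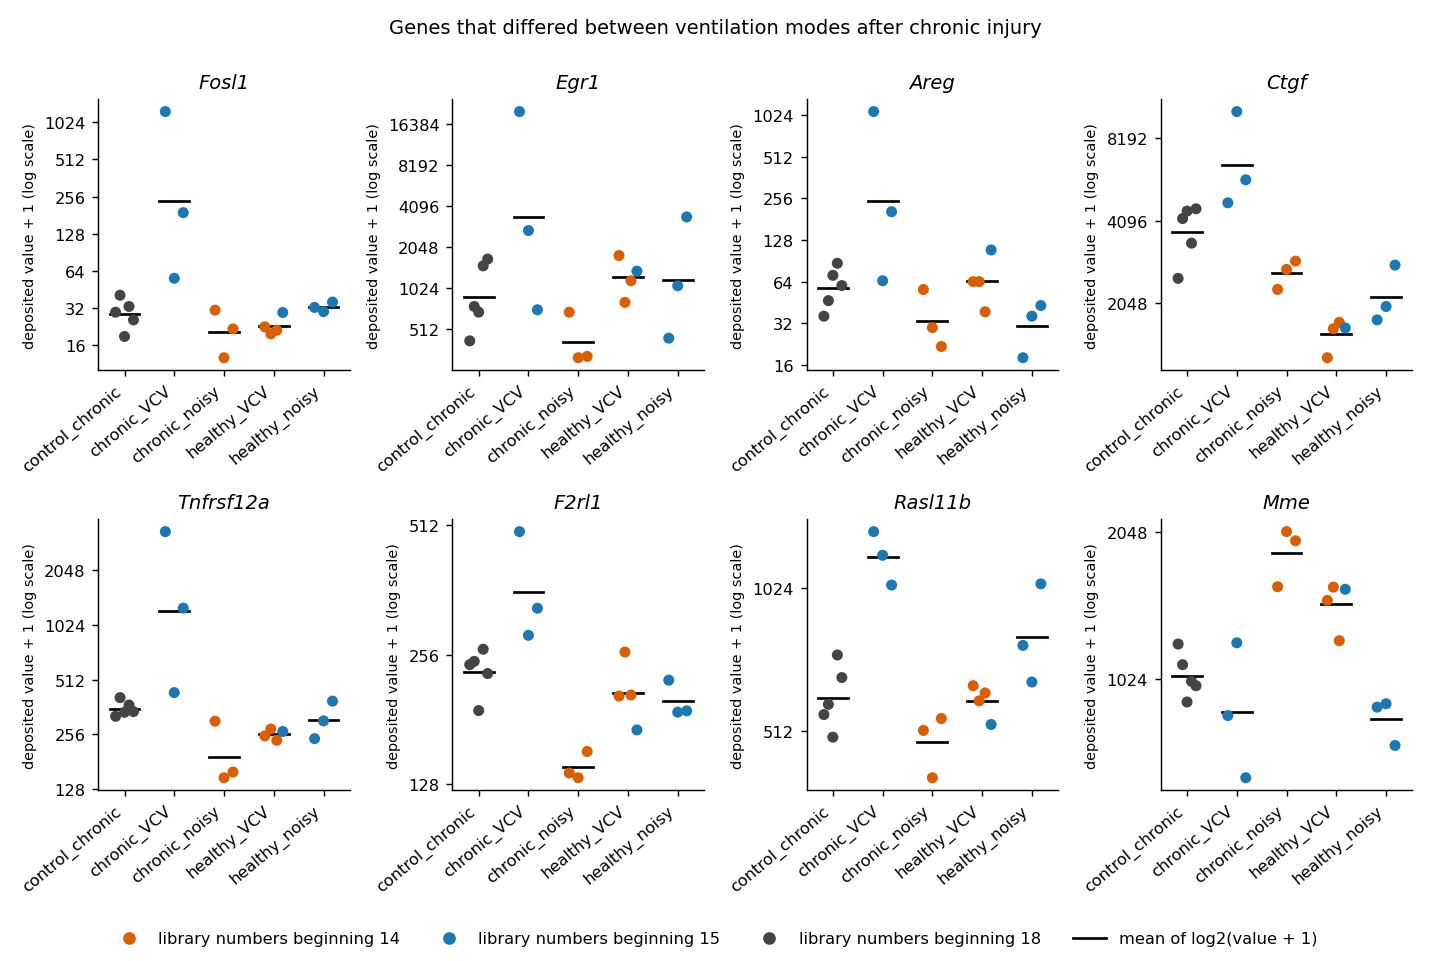
Deposited value plus 1 (vertical axis, log scale) of 8 genes in every library of 5 groups (horizontal axis), coloured by the first 2 digits of the library number; lines are means of log2(value + 1). Fosl1, Egr1, Areg, Ctgf, Tnfrsf12a, F2rl1 and Rasl11b were lower and Mme higher in all 3 chronic_noisy than in all 3 chronic_VCV libraries.

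Of 11 EGF receptor ligands, receptors and regulators, Areg alone was called. Areg encodes amphiregulin, a ligand that epithelium and immune cells release after injury. It was 55.1, 28.7 and 20.7 in chronic_noisy and 1087, 63.9 and 204 in chronic_VCV, with no overlap (-2.88 ± 0.69, limma adjusted p = 0.03). Unventilated chronic injury ranged from 35.0 to 85.8, and the series difference was 0.11. The call was kept in 2 of 6 fits that leave out a library. For the related ligands, Hbegf (heparin-binding EGF) gave -1.11 ± 0.37 (limma adjusted p = 0.0926) and Ereg (epiregulin) -1.88 ± 0.87 (limma adjusted p = 0.193), with the highest level of each again in chronic_VCV 067.

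Tnfrsf12a encodes FN14, the receptor for the cytokine TWEAK, which is induced by growth factors at sites of injury. It was at 302, 147 and 158 in chronic_noisy and at 3308, 433 and 1259 in chronic_VCV, while unventilated chronic injury was between 321 and 406. The groups did not overlap, and chronic_VCV was above the unventilated range while chronic_noisy was below it. The difference was -2.66 ± 0.42 (limma adjusted p = 0.00687), it was called in all 6 fits that leave out a library, and with the series as a covariate it was -3.05 (limma adjusted p = 0.033).

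F2rl1 encodes the protease-activated receptor PAR2, which trypsin, tryptase and coagulation factors cleave. Its levels were 134, 131 and 151 in chronic_noisy and 494, 283 and 327 in chronic_VCV, and no library crossed. The unventilated range was 188 to 262, between the ventilated groups. The difference of -1.36 ± 0.20 (limma adjusted p = 0.0027) was called in all 6 fits that leave out a library, and with the series covariate it was -1.72 (limma adjusted p = 0.0036). Epha2, an ephrin receptor of epithelium, was 806, 906 and 938 in chronic_noisy and 4747, 1567 and 1813 in chronic_VCV (-1.43 ± 0.25, limma adjusted p = 0.0114).

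Among 19 genes of stretch sensing and YAP targets, 1 was called. This was Ctgf, now named Ccn2, a matricellular protein that promotes fibroblast adhesion and matrix synthesis. Ctgf was at 2299, 2719 and 2916 in chronic_noisy and at 4759, 10240 and 5774 in chronic_VCV, where library 069 and not 067 was the highest. The difference was -1.32 ± 0.25 (limma adjusted p = 0.0122), called in 5 of 6 fits that leave out a library, and the series difference was -0.04. Its close relative Cyr61 gave -1.89 ± 0.52 and did not pass (limma adjusted p = 0.051), although its levels in chronic_VCV, 10540, 4622 and 1908, were all above those in chronic_noisy, with a mean of 1238 ± 246 (SD, n = 3). The median of the 19 genes was 0.08, so the list did not move as one.

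Other called genes of tissue stress were lower too. Gdf15, a stress cytokine of the TGF-beta family, fell by 1.47 ± 0.30 (limma adjusted p = 0.0177) and Phlda1, a growth-factor-induced regulator of survival, by 1.3 ± 0.31 (limma adjusted p = 0.0308). Atf5, a transcription factor of the mitochondrial and amino acid stress responses, was 3678, 3078 and 3225 in chronic_noisy against 6829, 6612 and 5564 in chronic_VCV (-0.93 ± 0.17, limma adjusted p = 0.0127). It was the only one called of 26 genes of the unfolded protein and amino acid stress responses.

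Actin cytoskeleton genes and targets of serum response factor (SRF), the transcription factor that actin polymerisation releases from inhibition, formed a list drawn up after the values had been seen. Of its 30 tested members 9 fell and none rose, and its median was -0.27. Over all genes tested, 1.86% were called lower. The members were chosen with their values known, so the count describes the list only. Srf itself was 1362, 1300 and 1462 in chronic_noisy and 6607, 1778 and 2188 in chronic_VCV (-1.10 ± 0.28, limma adjusted p = 0.0375), against 1852 to 2482 in unventilated chronic injury. The 3 chronic_noisy values were close together and below all chronic_VCV and unventilated values. Acta1, skeletal muscle alpha-actin and an SRF target, was at 37.9, 35.0 and 26.2 in chronic_noisy and at 259, 138 and 267 in chronic_VCV (-2.66 ± 0.46, limma adjusted p = 0.0114). The unventilated range of Acta1 was 10.1 to 54.0, which held the chronic_noisy values. Acta1 was also the only one called of 10 tested skeletal muscle genes, whose median was -0.50. Of the 10, 5 were lower without overlap, Acta1 included, and 1 higher (Ckm), beside 14.4% and 15.9% of all genes tested.

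The abundant LIM-domain protein gene Csrp1 fell by 0.79 ± 0.16 (limma adjusted p = 0.016), from 40720, 23870 and 29020 to 18800, 17840 and 16370. Rhoc, a small GTPase that drives actin contractility, fell by 1.12 ± 0.20 (limma adjusted p = 0.0114). Lmna, which encodes the nuclear lamins A and C, fell by 0.82 ± 0.17 (limma adjusted p = 0.0169), Pdlim7, an actin-binding adaptor, by 0.66 ± 0.16 (limma adjusted p = 0.0335), and the tubulin genes Tuba1a and Tuba1b by 0.75 ± 0.15 and 0.84 ± 0.18. Tuba1a and Tuba1b are near-identical copies, so reads may have been split between them. The ninth called member, Actg1, was low for a cytoplasmic actin gene and has near-identical copies, and is uncertain. None of the 9 was called without chronic_VCV 067, where the list median was -0.24.

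The promoters of 5 of these called genes are shown because their letters hold matches to motifs that were searched for, none of them the AP-1 motif. Each is the stretch from 200 bases to 1 base before the RefSeq start site, read on the gene's strand in GRCr8, with motif matches in capitals. Areg (chr14:17265642-17265841, minus strand) and Maff (chr7:112792587-112792786, plus strand) hold the cAMP response element TGACGTCA. Srf (chr9:21923876-21924075, plus strand) holds 2 CArG boxes, the core of the serum response element, and Acta1 (chr19:68784195-68784394, minus strand) holds 1 together with the TEAD motif GGAATG on the other strand. Ctgf (chr1:22624615-22624814, minus strand) holds GGAATG 3 times.
Areg: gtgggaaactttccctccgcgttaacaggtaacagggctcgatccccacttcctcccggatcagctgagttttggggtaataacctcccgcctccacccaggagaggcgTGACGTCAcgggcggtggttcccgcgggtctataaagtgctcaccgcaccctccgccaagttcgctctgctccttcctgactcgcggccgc
Maff: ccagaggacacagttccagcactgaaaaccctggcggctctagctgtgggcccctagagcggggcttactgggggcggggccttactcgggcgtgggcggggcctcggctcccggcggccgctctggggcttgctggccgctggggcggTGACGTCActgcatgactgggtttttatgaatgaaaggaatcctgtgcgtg
Srf: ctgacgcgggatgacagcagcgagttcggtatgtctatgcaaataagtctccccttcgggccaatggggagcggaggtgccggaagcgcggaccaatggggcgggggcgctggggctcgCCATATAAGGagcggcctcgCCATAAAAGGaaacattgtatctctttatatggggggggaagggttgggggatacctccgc
Acta1: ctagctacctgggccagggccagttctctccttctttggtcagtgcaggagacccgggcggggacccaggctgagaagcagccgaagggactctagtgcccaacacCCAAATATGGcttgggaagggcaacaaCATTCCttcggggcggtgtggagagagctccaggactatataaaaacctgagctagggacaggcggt
Ctgf: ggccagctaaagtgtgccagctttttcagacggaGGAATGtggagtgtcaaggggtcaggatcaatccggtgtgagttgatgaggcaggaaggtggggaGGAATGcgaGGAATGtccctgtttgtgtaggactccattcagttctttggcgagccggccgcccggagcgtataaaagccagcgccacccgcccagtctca

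Over windows of 300 bases (250 before and 50 after the start), on both strands, TGACGTCA was present in 16 of 161 promoters of genes called lower (9.94%). It was present in 2.99% of the promoters of tested genes, in 1.91% of all 27457 RefSeq promoters, and in 0 of 53 promoters of genes called higher. The 16 include Areg, Epha2, Jund, Maff, Cldn7 and Pmepa1. A CArG box was present in 8 of the 161 (4.97%), against 1.23% of tested and 1.64% of all promoters, and in 1 of the 53. The 8 were Acta1, Actg1, Blcap, Dhrs4, Egr1, Kctd15, Srf and Zbtb22. The other motifs searched were not more frequent among the lower genes: GGAATG was present in 9.94% of them against 11.3% of tested promoters, and the AP-1 motif TGANTCA in 5.59% against 5.21%. Among genes called higher, TGANTCA was present in 7 of 53 promoters (13.2%) and GGAATG in 4 of 53 (7.55%). None of the 4 motifs contains another, and a match describes the letters only. Promoter GC content had medians of 64.3% for genes called lower, 57% for genes called higher and 60.7% for all tested, so motifs with CG are not compared at equal base composition.

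Outside these groups, Rasl11b, a small RAS-like GTPase gene, had the smallest adjusted p of the called genes. It was 512, 407 and 542 in chronic_noisy and 1344, 1198 and 1037 in chronic_VCV (-1.29 ± 0.17, limma adjusted p = 0.00124). The 3 libraries of each mode were close together, and the chronic_noisy values were within or near the unventilated range of 495 to 738.5. With the series covariate the difference was -1.51 (limma adjusted p = 0.0041). Galr2, a galanin receptor gene, fell by 1.39 ± 0.22 (limma adjusted p = 0.00687) at low levels of 34.3 to 39.0 in chronic_noisy against 78.8 to 121 in chronic_VCV.

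Mme was the only gene higher in chronic_noisy that was called in all 6 fits that leave out a library. It encodes neprilysin, a membrane protease that degrades substance P, bradykinin and other peptides in the airways and alveoli. Its levels were 1578, 2047 and 1960 in chronic_noisy and 859, 1211 and 640 in chronic_VCV, against a median of 1009 without ventilation. The difference was 1.08 ± 0.18 (limma adjusted p = 0.00687), the series difference was -0.20, and with the covariate it was 1.28 (limma adjusted p = 0.033). The remaining genes called both with and without the covariate were Cygb (cytoglobin), Gfod2, Tspan4 and Ctrb1.

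Heart muscle genes gave the highest differences in the comparison. In rats, sleeves of heart muscle surround the pulmonary veins within the lung, and how much of this tissue each sample held was not tested. Of 17 tested heart muscle genes 8 rose and none fell, beside 0.563% of all genes tested called higher. The median difference of the 17 was 3.54. The modes did not overlap for 14, all higher in chronic_noisy, beside 15.9% of all genes tested. Myl7, the atrial myosin light chain, was 433, 2296 and 814 in chronic_noisy and 3.06, 4.06 and 1.11 in chronic_VCV (8.05 ± 1.89, limma adjusted p = 0.0282). Myh6, the alpha myosin heavy chain, was 607, 2215 and 1166 against 3.06, 10.1 and 5.55 (7.45 ± 1.66, limma adjusted p = 0.0231). Unventilated chronic injury lay between the modes for both, at 13.9 to 90.0 for Myl7 and 92.1 to 213 for Myh6.

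The other called members were Mb (myoglobin, 5.998 ± 1.63), Csrp3 (5.50 ± 1.41), Actn2 (sarcomeric alpha-actinin, 5.41 ± 1.41), Myoz2 (4.47 ± 1.05), Casq2 (calsequestrin, 3.71 ± 0.76) and Mybpc3 (3.49 ± 0.94), all as log2 with SE. Smpx, a small protein of striated muscle outside the list, rose by 4.42 ± 1.19 (limma adjusted p = 0.0479). Summed over the 17 genes, levels were 2650 to 9756 in chronic_noisy and 479 to 937 in chronic_VCV. Within acute_noisy, where the mode was the same, the sums were 3235 to 11050 in number series 14 and 556 to 787 in number series 15. In healthy_VCV they were 7852 to 11460 in series 14 and 2342 in the 1 library of series 15. The median series difference of the list was 3.26, its median mode difference with the series as a covariate was 0.52, and in uninjured lungs, where the series ran the other way, its median mode difference was -2.98. None of the 17 was called without chronic_VCV 067, at a median of 2.96.

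**Figure D3:**
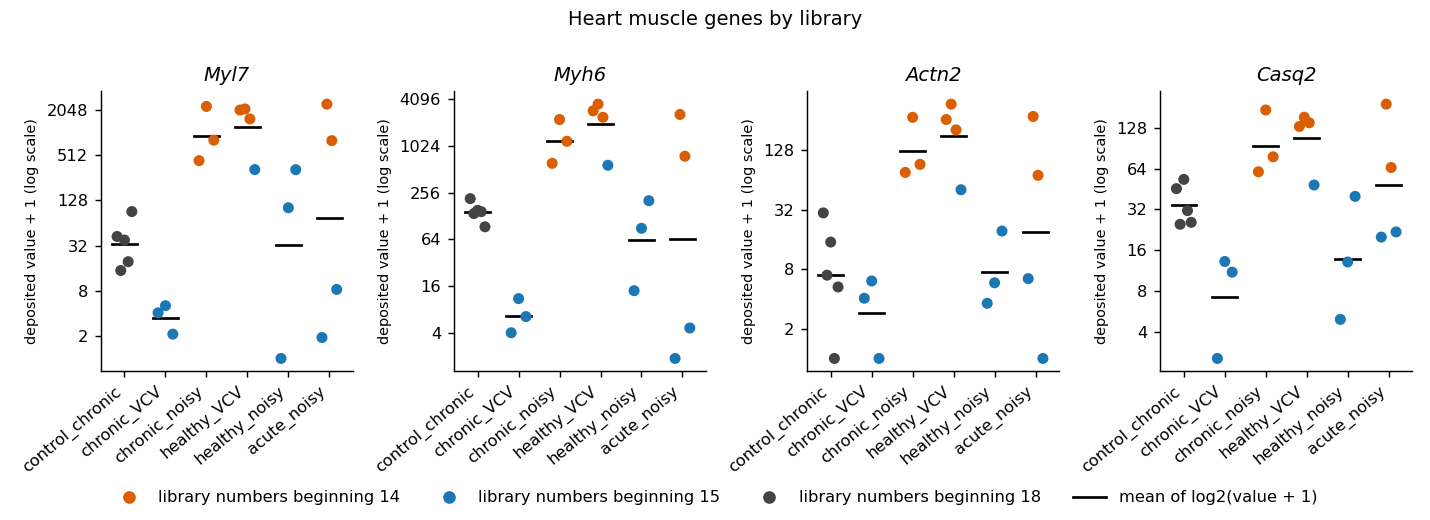
Deposited value plus 1 (vertical axis, log scale) of Myl7, Myh6, Actn2 and Casq2 by group (horizontal axis), coloured by the first 2 digits of the library number; lines are means of log2(value + 1). In acute_noisy, which holds both number series, the libraries of series 14 sit above those of series 15, as chronic_noisy sits above chronic_VCV.

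Vcan encodes versican, a large proteoglycan of provisional matrix. It was 2725, 3357 and 9063 in chronic_noisy and 755, 270 and 753 in chronic_VCV (3.02 ± 0.71, limma adjusted p = 0.0276). All 6 ventilated lungs were above the unventilated range of 55.5 to 214. The series difference was 1.18, and the call was kept in 2 of 6 fits that leave out a library. Within acute_noisy, Vcan was 8780 and 7691 in series 14 and 1858 and 1725 in series 15. In healthy_VCV it was 818 to 5515 in series 14 and 2347 in the 1 library of series 15. It was the only one called of 32 collagen and extracellular matrix genes, whose median was 0.23. Col1a1 gave -0.10 ± 0.48 and Col3a1 0.10 ± 0.38, the fibrillar collagens, and Fn1 (fibronectin) 1.11 ± 0.45, with limma adjusted p of 0.919, 0.895 and 0.145.

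Ccr2, the receptor that brings monocytes from blood to tissue, was 295, 253 and 455 in chronic_noisy against 41.3, 37.5 and 85.4 in chronic_VCV (2.64 ± 0.60, limma adjusted p = 0.0254). The constant-ventilation values lay near the unventilated range of 35.0 to 67.4, and the series difference was 1.32. Within acute_noisy, Ccr2 was 539 and 456 in series 14 and 84.8 and 92.9 in series 15. In healthy_VCV it was 65.8 to 239 in series 14 and 167 in the 1 library of series 15. It was the only one called of 23 macrophage and monocyte genes (median 0.42). Foxp3, the transcription factor of regulatory T cells, went the other way, from 393, 185 and 182 in chronic_VCV to 52.4, 74.5 and 68.4 in chronic_noisy (-1.86 ± 0.46, limma adjusted p = 0.0344, series difference -1.01). No other of 25 T and NK cell genes was called. Cr2, the complement receptor of B cells and follicular dendritic cells, was higher at 69.5, 38.6 and 42.9 against 6.12, 0 and 21.1 (3.20 ± 0.85, limma adjusted p = 0.0447, series difference 1.61). Its call was kept in 1 of 6 fits that leave out a library.

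Clca1, a secreted product of mucous cells, was 389, 1630 and 1851 in chronic_noisy and 30.6, 290.1 and 92.1 in chronic_VCV (3.48 ± 0.79, limma adjusted p = 0.0248). Here the unventilated lungs, at 1271 to 2716, were above all chronic_VCV values and held all chronic_noisy values but the lowest. The gene was called in 2 of 6 fits that leave out a library, and its series difference was 1.21. None of the 14 airway secretory genes of the list was called (median 0.55). The modes did not overlap for 6, all with higher levels in chronic_noisy, beside 15.9% of all genes tested. Plunc, a secreted airway defence protein, was at 1364, 270.2 and 900.2 in chronic_noisy and at 24.5, 9.13 and 2.22 in chronic_VCV, with a difference of 6.21 ± 2.07 (limma adjusted p = 0.0906) and a series difference of 6.33. Scgb3a1, a secretoglobin, gave 3.64 ± 1.49 (limma adjusted p = 0.153) with a series difference of 4.30. The mucin gene Muc5b gave 2.76 ± 0.81 with a series difference of 1.89, and Agr2, which mucin folding needs, gave 1.51 ± 0.49 with 0.40 (limma adjusted p = 0.0671 and 0.0825). Scgb1a1, the club cell secretoglobin, gave -0.37 ± 0.39 (limma adjusted p = 0.588).

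Genes of clotting moved in both directions. F5 (coagulation factor V) rose by 1.55 ± 0.38 (limma adjusted p = 0.0335, series difference 0.72). Tfpi, the inhibitor of the tissue factor pathway, rose by 0.76 ± 0.19 (limma adjusted p = 0.0346, series difference 0.15). With F2rl1, described above as lower, these were the 3 called of 18 coagulation and fibrinolysis genes, beside 2.43% of all genes tested. Of 18 genes of prostaglandin and leukotriene synthesis, Lta4h, which makes leukotriene B4, rose by 0.61 ± 0.13 (limma adjusted p = 0.0195). Ptgis, the prostacyclin synthase, fell by 0.98 ± 0.26 (limma adjusted p = 0.0493), from 470, 505 and 358 to 228, 216 and 225.

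Rgs5, a pericyte gene, was 477, 574 and 525 in chronic_noisy against 282, 189 and 281 in chronic_VCV (1.09 ± 0.27, limma adjusted p = 0.0344, series difference 0.58). Hhip, the decoy receptor for hedgehog ligands, was 1619 to 2647 against 782, 1175 and 1022 (1.08 ± 0.28, limma adjusted p = 0.0425, series difference -0.08). Both were above their unventilated ranges in chronic_noisy, which were 197 to 384.5 for Rgs5 and 416 to 826 for Hhip. Of 27 cell division genes, Ccnb1 (cyclin B1) was called (1.35 ± 0.34, limma adjusted p = 0.0375, series difference 0.59). The modes did not overlap for 15 of the 27, beside 30.4% of all genes tested. Of these, 14 were higher in chronic_noisy, beside 15.9% of all genes tested. The list median was 0.64, as it was without chronic_VCV 067. The median series difference of the list was 0.28, and its median with the series as a covariate was 0.45.

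Several of the lowest differences came with series differences of the same sign. Slc5a2, a renal glucose transporter, was 14.4, 32.3 and 27.0 in chronic_noisy and 219, 189 and 166 in chronic_VCV (-2.97 ± 0.75, limma adjusted p = 0.0358), with a series difference of -2.28. Angptl6 gave -2.83 ± 0.52 with a series difference of -1.07, Capn12 -2.63 ± 0.59 with -1.3, Cyp21a1 (a steroid hydroxylase) -2.75 ± 0.64 with -1.31 and Dkk4 (a WNT antagonist) -2.36 ± 0.63 with -1.71. For Slc5a2 and Dkk4 the chronic_VCV values were within the unventilated range, and for Cyp21a1 they were above it. For Slc5a2, Angptl6, Capn12, Cyp21a1 and Dkk4 every chronic_noisy value was below that range. Of the widely expressed genes, Rps26 (a ribosomal protein) fell by 1.22 ± 0.32 with a series difference of -0.91. It was the only one called of 62 listed cytosolic ribosomal protein genes, whose median was -0.20. Of the 62, 18 were lower without overlap and 2 higher, beside 14.4% and 15.9% of all genes tested. Outside the list, the ribosomal protein entries RL41_RAT (-1.67, limma adjusted p = 0.0241) and RS28_RAT (-1.31, limma adjusted p = 0.0292) were called lower. Ndufs7, a complex I subunit, fell by 0.67 ± 0.18, alone among 55 respiratory chain genes.

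Ctrb1, a pancreatic chymotrypsinogen, was at 0, 4.49 and 3.18 in chronic_noisy and at 122, 40.6 and 71.0 in chronic_VCV (-4.66 ± 0.79, limma adjusted p = 0.01), the lowest difference of the named genes. Its series difference was 2.06, of the opposite sign, and with the covariate it was -6.71 (limma adjusted p = 0.0016).

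Across the 14908 genes, the mode difference and the series difference had a Pearson r of 0.523 and a Spearman rho of 0.454. The 2 differences share no library, genes are not independent replicates, and the value is a description. The sign was the same for 71 of the 84 genes called higher and for 204 of the 278 called lower. For the 84 the median mode difference was 1.00 and the median series difference 0.30, and for the 278 they were -0.88 and -0.16. Genes called lower were also shorter. Their median span in the RefSeq annotation was 8.62 kb, against 50.2 kb for genes called higher and 23.9 kb for all tested. For comparison, the 10% of genes highest in series 14 against 15 had a median span of 38.6 kb, and the 10% lowest had 15.4 kb. The part of span and of depth in these calls was not tested beyond the thinned counts given in the closing section.

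**Figure D4:**
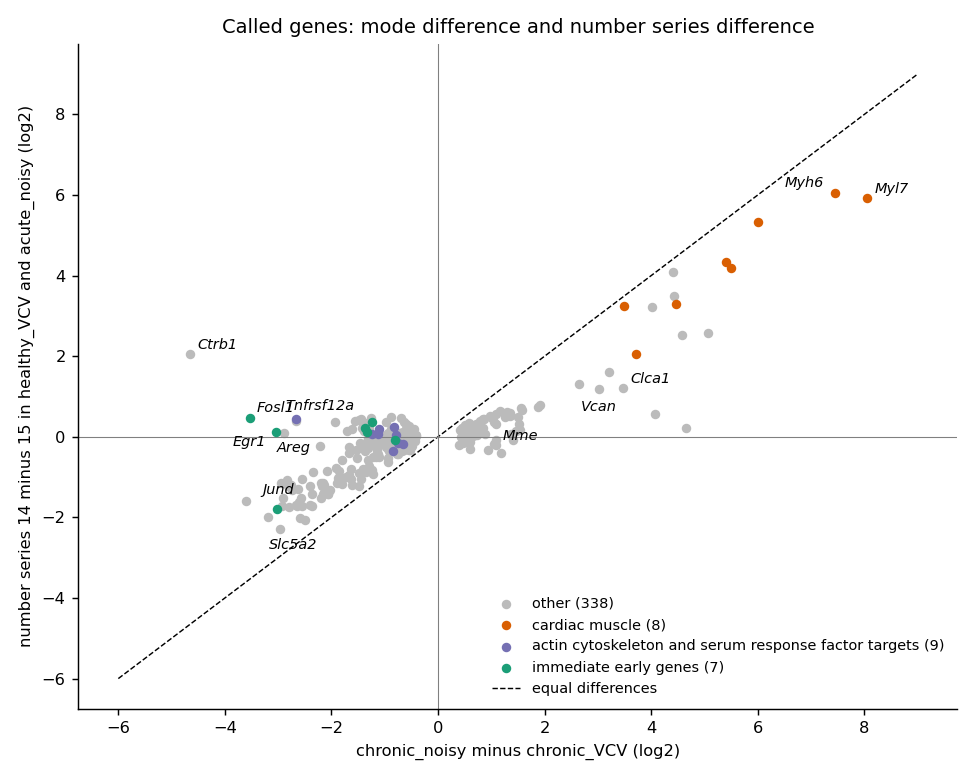
Difference chronic_noisy minus chronic_VCV (horizontal axis, log2) and difference of number series 14 minus 15 estimated in healthy_VCV and acute_noisy (vertical axis, log2) for the 362 called genes; the dashed line marks equal values. Heart muscle genes have high values on both axes, 8.05 and 5.92 for Myl7, while Fosl1, Egr1 and Areg lie near 0 on the vertical axis, at 0.47, 0.13 and 0.11.

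Of the epithelial genes, Gprc5a and 3 chosen after their values were seen (Krt19, Cldn7 and Epcam) fell, with series differences of -0.05, -0.19, 0.10 and -0.05. Gprc5a, a type 1 cell receptor that limits NF-kB signalling, was 6899, 5732 and 5219 in chronic_noisy and 15550, 6946 and 12660 in chronic_VCV (-0.91 ± 0.19, limma adjusted p = 0.0187). Krt19, a keratin of simple epithelia, fell by 0.87 ± 0.22 (limma adjusted p = 0.035), Cldn7, a tight junction claudin, by 0.94 ± 0.22 (limma adjusted p = 0.0292), and Epcam, the epithelial cell adhesion molecule, by 0.69 ± 0.13 (limma adjusted p = 0.0137). Epcam was at 3129, 2703 and 2289 against 4447, 4217 and 4317, with 3952 to 4537 in unventilated chronic injury. The lists of epithelial markers held few calls: none of the 15 type 2 cell genes (median 0.07) or 20 ciliated cell genes (median 0.08) was called, and Gprc5a alone among 17 type 1 cell genes (median 0.18). The surfactant protein genes Sftpc and Sftpb, made by type 2 cells, gave -0.13 ± 0.24 and -0.12 ± 0.26 (limma adjusted p = 0.763 and 0.799). Sftpc reached 184900 to 313100 in chronic_noisy and 226400 to 272400 in chronic_VCV, so this marker of type 2 cells was present in all 6.

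Apart from the prostaglandin and leukotriene list described above, no list of inflammatory mediators held a called gene. None of 27 chemokines (median -0.37), 27 cytokines and their receptors (median 0.06), 17 NF-kB genes (median -0.28), 28 interferon response genes (median -0.05) or 15 genes of MHC class II antigen presentation (median 0.02) passed. Cxcl1, a neutrophil chemokine, was 243, 128 and 103 in chronic_noisy and 2186, 165 and 305 in chronic_VCV (-1.70 ± 0.66, limma adjusted p = 0.136). Il6 was at 9.93, 0 and 2.39 against 171, 1.01 and 6.66 (-2.05 ± 1.28, limma adjusted p = 0.328), so 1 library held nearly all of its signal. Il1b gave 0.00 ± 0.57 and Tnf -0.80 ± 0.50 (limma adjusted p = 0.998 and 0.332), and Cxcl2 -1.79 ± 0.95 (limma adjusted p = 0.253). The 23 neutrophil genes had a median of 0.66 and none was called. Their summed level was 26580 to 50840 in chronic_noisy and 16980 to 34360 in chronic_VCV, against 4366 to 6989 without ventilation. The wide intervals of these genes do not show that the modes were alike.

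The other lists of cell types with no called member were mast cells, endothelium, fibroblasts, erythroid cells, platelets and fat cells. Lists of matrix proteases, TGF-beta signalling, complement, heat shock proteins, cholesterol synthesis, glycolysis and hypoxia, the circadian clock and alveolar fluid transport had none either. Erythroid genes had a median of 0.76 and endothelial genes one of 0.21. Hspa1a, an inducible heat shock gene, reached 25890 in chronic_VCV 067 and 1461 to 2635 in the other 5 libraries, so the library with the highest immediate early genes also held the highest Hspa1a. The part of that library's state in the results above was not tested beyond leaving it out. Krt17, a keratin of injured epithelium, was at 8.08 to 26.2 in chronic_noisy and 9.18 to 11.2 in chronic_VCV.

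**Figure D5:**
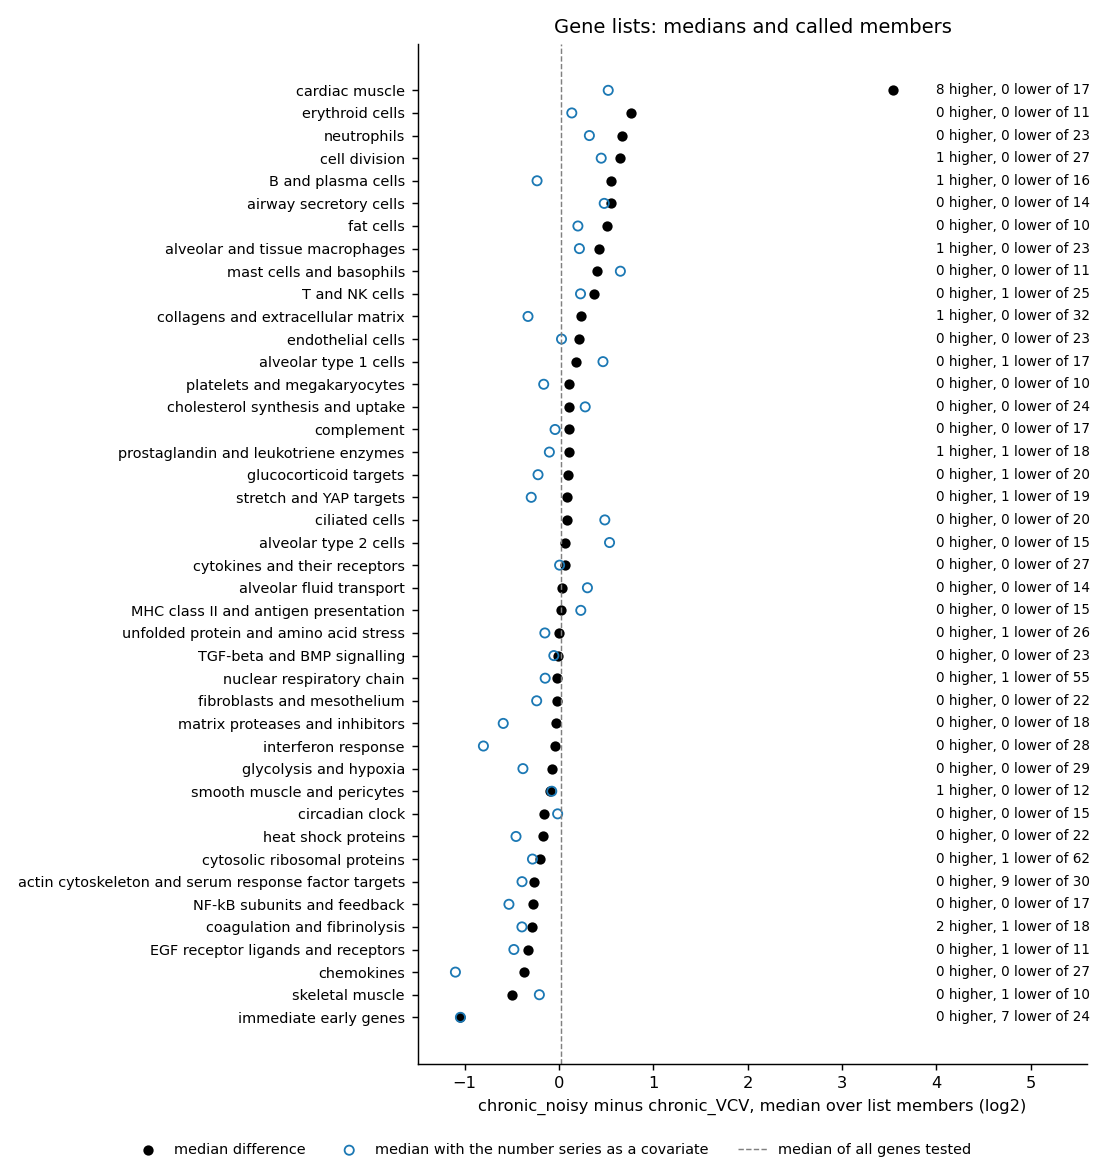
Median difference chronic_noisy minus chronic_VCV over the tested members of each gene list (horizontal axis, log2), without (filled) and with (open) the number series as a covariate, with the called members written at the right. Without the covariate, immediate early genes are lowest, at -1.05 (also -1.05 with it), and heart muscle genes highest, at 3.54 (0.52 with it).

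The mode difference after chronic injury was set against that in uninjured lungs (healthy_noisy minus healthy_VCV) in the same fit. The difference between these 2 differences was called for 4435 genes (29.7%), 2345 of them positive and 2090 negative. In the uninjured lungs all variable-ventilation libraries were of series 15 and 3 of 4 constant-ventilation libraries of series 14, so the number series enters this comparison with opposite signs. With the series as a covariate 6 genes (0.0402%) were called. Across genes the mode differences after chronic injury and without injury had a Pearson r of -0.695.

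Among the named genes, Fosl1 had an estimate of 0.51 in uninjured lungs and the difference from chronic injury was -4.04 (limma adjusted p = 0.0032). For Tnfrsf12a the uninjured estimate was 0.25 and the difference -2.92 (limma adjusted p = 0.0022). F2rl1 had an uninjured estimate of -0.06 and a difference of -1.3 (limma adjusted p = 0.0027), and Rasl11b 0.45 and -1.74 (limma adjusted p = 0.00042). Areg was lower with variable ventilation in both settings by its estimates, at -1.09 without injury, and the difference of -1.79 did not pass (limma adjusted p = 0.15). Acta1 likewise had an uninjured estimate of -1.27, with a difference of -1.39 (limma adjusted p = 0.093). The highest differences between the settings were of Myl7 (13.3), Myh6 (12.4), Mb, Actn2 and Csrp3, and the lowest of Ctrb1 (-6.28, limma adjusted p = 0.00089), Slc5a2, Foxh1, Capn12 and Angptl6. The series difference of Ctrb1 was of the opposite sign to its mode difference, and those of the others had the same sign and were over 1 in size.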

How the data were processed

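Poly(A) RNA of rat lung was sequenced strand-specifically (dUTP method) on a HiSeq 2000, per the labels' protocols. CASAVA 1.8.0, BWA, bedtools 2.11, DESeq 1.8.3 and build rn4 are named in the submitters' processing notes; how overlapping genes and strands were counted is not given in the sources used here. The deposited signal is a read count per gene divided by 1 size factor per library, as the values showed: all were whole multiples of what 1 read was worth (within 0.1 read). The differences were computed on log2(value + 1), with values as deposited by the authors, for 14908 of 17002 genes with a mean of at least 10 over 28 libraries. limma 3.58.1 (trend and robust, R 4.3.3) was fitted with 8 group means to 28 libraries. Each SE therefore rests on the variance within all groups and not on the 6 libraries alone. The 1 added before the log understates fold changes of low genes. Tests were two-sided, with Benjamini-Hochberg adjustment over all 14908 genes and a threshold of 0.05. edgeR 4.0.16 and DESeq2 1.42.0 on the recovered reads were alternatives, with another pseudocount (10), no filter, quantile normalisation, thinning to 11280590 reads, the 6 libraries alone, the number series as a covariate and leaving out each library. On simulated data for this comparison (14908 genes), 52% of 2-fold and 84% of 4-fold changes were recovered, and 13 of 14708 unchanged genes were called. Apart from the planted changes, the simulation gave every group the same mean per gene, with no number series and no deviating library. Its shares therefore do not carry over to the calls reported above. No 2 libraries agreed within sampling noise.

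Genes, 41 lists and rules were chosen with earlier results of these data known. Named were the 12 highest and 12 lowest called genes without overlap whose mean reached 50 in one of the modes and whose symbol was usable, up to 4 called members per list (otherwise 2 abundant ones), 16 fixed genes, and 5 in each direction for the difference from uninjured lungs. The list of actin and SRF genes, the motif holders and Rasl11b, Epha2, Galr2, Mme, Nab2, Gdf15, Phlda1, Ier3, Gadd45b, Junb, Hbegf, Ereg, Cyr61, Srf, Csrp1, Rhoc, Lmna, Pdlim7, Tuba1a, Tuba1b, Krt19, Cldn7, Epcam, Hhip, Plunc, Scgb3a1, Muc5b, Agr2, Cygb, Gfod2 and Tspan4 were chosen after their values had been seen. Promoter sequences and gene spans were matched by symbol to RefSeq (GRCr8): 80.4% of 10844 tested genes with a usable symbol had a promoter and 99% a span. Of the genes called lower, 161 of 193 had a promoter.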

Additional observations from a re-analysis of the deposited data

Results flagged for a closer look

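The mode effect differed between chronically injured and uninjured lungs, by limma's test of the difference itself, for 4435 genes. Among the named genes it was positive for Myl7 (13.3 on the log2 scale), Myh6 (12.4), Mb (10.7), Actn2 (10), Csrp3 (9.69), Myoz2 (7.17), Smpx (6.96), Mybpc3 (6.77), Casq2 (6.69), Vcan (4.66), Clca1 (4.08) and Cr2 (3.92). It was negative for Ctrb1 (-6.28), Slc5a2 (-5.75), Foxh1 (-5.6), Capn12 (-5.4), Angptl6 (-5.16), Cyp21a1 (-4.93), Jund (-4.9), Dkk4 (-4.78), Fosl1 (-4.04), Egr1 (-2.98) and Tnfrsf12a (-2.92). The number series ran in opposite senses in the 2 settings, and with it as a covariate 6 genes were called.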

How the results depend on the processing

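No paired analysis was possible because no replicate number occurs in both groups of a comparison. The count of 362 genes called between modes ran from 8 to 702 over the fits that leave out 1 library. It was 33 with only the libraries of the groups compared, 18 with edgeR on the 6 libraries and 28 with edgeR on those libraries thinned to equal read totals. It was 9 with the number series as a covariate, 1 with that covariate without acute_noisy, 411 with it without healthy_VCV, 15 with edgeR and the covariate, and 1153 (357 higher) with DESeq2. With a pseudocount of 10, no filter, quantile normalisation or edgeR on all libraries it was 326 to 457, and edgeR also called 298 of the 362. The edgeR fits on 6 libraries and with the covariate were chosen after seeing the data. The count of 4435 for the difference from uninjured lungs became 6 with the covariate, and 2535 to 4765 with a library left out. The 171 genes called between number series (1.15%) became 19 with edgeR, 0 without acute_noisy, 2740 without healthy_VCV and 0 to 3178 with a library left out, so the series difference itself rests on few libraries. At an unadjusted p under 0.05, limma gave 120 genes without acute_noisy. With the covariate estimated without healthy_VCV, 10 named genes turned direction: Myl7 (-0.412), Myh6 (-1.42), Mb (-1.6), Csrp3 (-0.435), Actn2 (-0.384), Smpx (-0.457), Mybpc3 (-0.572), Slc5a2 (0.193), Dkk4 (0.142) and Rps26 (0.163). The cause was not tested. The 63 named genes that were called kept their direction in every other setting named here. Of 19 named genes that were not called, 11 changed sign in at least 1 setting. Of the 6 libraries, depth was lowest in chronic_VCV 067, where 1 read was worth 1.53 in the deposited values.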
